A study of Homo sapiens with 4 samples.

Results

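The 37 genes of the mitochondrial genome were followed in SCC13 cells, a human line of cutaneous squamous cell carcinoma. They are the rows of the deposited count table whose gene name starts with MT-, 37 of 60617 rows, and comprise 13 mRNAs, 2 rRNAs and 22 tRNAs. Both groups were cultured in CnT-07 medium and infected with lentivirus, carrying either a scrambled shRNA (control shRNA, 2 libraries) or an shRNA against the RNA-binding protein CELF2 (CELF2 knockdown, 2 libraries), and the genotype label reads WT in both. PolyA RNA was sequenced, and the libraries held 17649090 to 27898889 counts. Separate cultures are not stated for the replicates. The p-values therefore cover the spread between these 4 libraries alone, and that spread may be technical. The sources used here do not say whether both knockdown libraries received an identical shRNA.

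CELF2 had 1 count in all, in control replicate 1, so the level of the targeted mRNA is no check of the labels. A loss of CELF2 mRNA in the knockdown cannot be seen in these counts. The 13 squamous keratinocyte markers looked at, KRT5 and KRT14 among them, were all well counted, at 74.4 CPM (counts per 1000000, after scaling of the libraries) or more in each library. The summed level of 6 immune markers was 0.416 to 1.25 CPM in the control libraries and 2.19 to 10.7 CPM in the knockdown, with 3 of the 6 at 0 counts everywhere. The 8 fibroblast markers summed to 13.3 to 16.3 CPM and 21.1 to 38.1 CPM, with 5 of the 8 at 0. Melanocyte markers summed to 6.12 to 8.83 CPM against 9.03 to 9.05 CPM, with 3 of 6 at 0, and endothelial markers to 0.356 to 0.679 CPM against 1.83 to 2.23 CPM. The part of these markers in the results was not tested.

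The mitochondrial genome is a small circle that is transcribed on both strands into long precursor RNAs. Nearly all mRNAs and both rRNAs are read from the heavy-strand precursor. The light-strand precursor yields a single mRNA, MT-ND6, and a minority of the tRNAs, and the rest of it is noncoding and is known to be degraded quickly by the helicase SUPV3L1 with the exonuclease PNPT1. The tRNAs lie between the other genes, and their excision by RNase P and ELAC2 frees the mRNAs. Heavy-strand mRNAs then receive a poly(A) tail from MTPAP and are stabilized by LRPPRC with SLIRP, whereas MT-ND6 mRNA is known to lack a stable tail. In GENCODE v29 (GRCh38), 12 mRNAs, 2 rRNAs and 14 tRNAs lie on the plus strand, here the heavy-strand genes, and MT-ND6 and 8 tRNAs on the minus strand, here the light-strand genes.

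The strands are easily told apart by their letters. MT-ND6 (ENSG00000198695, chrM:14149-14673, minus strand, 525 bases, protein coding) abuts MT-ND5 (chrM:12337-14148) at its 3′ end and the light-strand tRNA MT-TE (chrM:14674-14742) at its 5′ end. MT-CYB (chrM:14747-15887) follows on the heavy strand after 4 bases. The first 120 bases of MT-ND6 and of these heavy-strand neighbors, from GENCODE v29 transcripts, are shown 5′ to 3′ as transcribed, with runs of at least 3 G in capitals. They lie at chrM:14554-14673 (minus strand), chrM:12337-12456 (plus) and chrM:14747-14866 (plus).
MT-ND6: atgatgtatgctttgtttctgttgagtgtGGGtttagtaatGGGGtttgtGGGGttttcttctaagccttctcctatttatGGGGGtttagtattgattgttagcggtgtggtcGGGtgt
MT-ND5: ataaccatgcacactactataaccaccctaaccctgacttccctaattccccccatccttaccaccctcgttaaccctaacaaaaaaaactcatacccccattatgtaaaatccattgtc
MT-CYB: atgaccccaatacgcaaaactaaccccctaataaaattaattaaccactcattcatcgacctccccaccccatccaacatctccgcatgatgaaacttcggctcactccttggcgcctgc

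MT-ND6 holds 5 such G runs in this window and its neighbors hold 0. Among the 12 heavy-strand mRNAs 1 (MT-CO3) has a GGG in its first 120 bases, against 81.9% of the 200764 GENCODE transcripts of at least that length; CCC, the same motif on the other strand, is in 79.3% of those windows. Over the whole transcript MT-ND6 is 35.6% G and 7.05% C, with 19 G runs and 0 C runs. The heavy-strand mRNAs are 6.28% to 16.2% G and 29.5% to 36.0% C. The same split holds for the tRNAs, which are 23.5% to 36.1% G on the light strand and 10.3% to 19.1% G on the heavy strand.

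**Figure D1:**
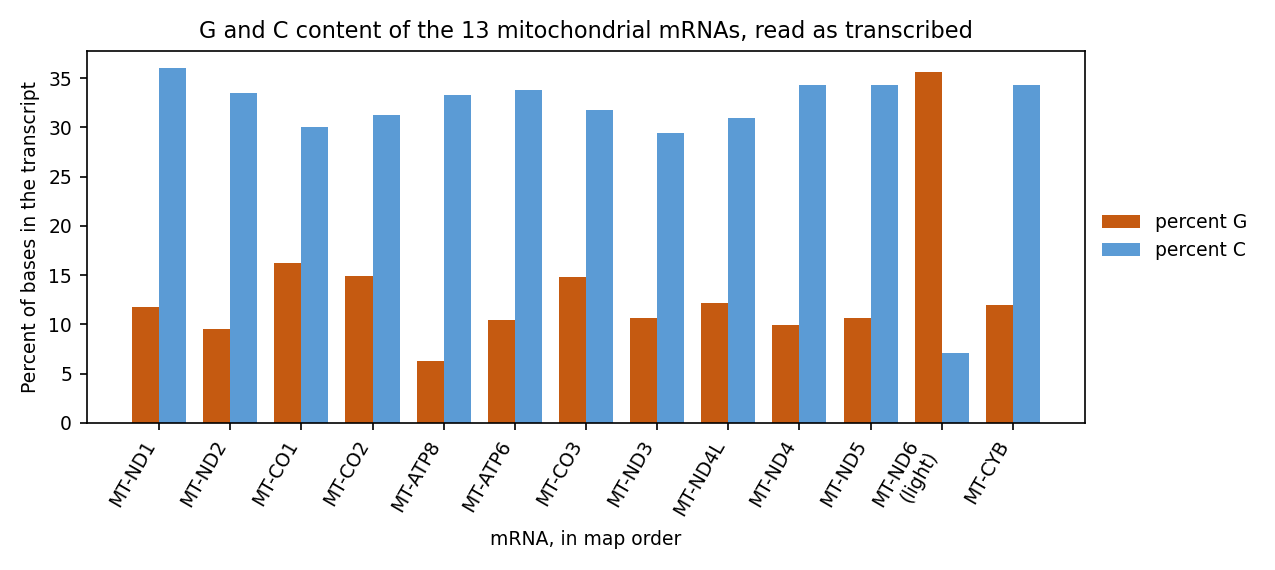
Bars give the percent of G and of C in each of the 13 mitochondrial mRNAs, in map order and read as transcribed. MT-ND6 is 35.6% G, and the other 12 mRNAs are at most 16.2% G.

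The light-strand tRNAs whose values are described further on are printed for the same reason, whole and 5′ to 3′, with G runs in capitals. They lie on the minus strand at chrM:4329-4400 (MT-TQ, for glutamine), chrM:7446-7514 (MT-TS1, for serine), chrM:14674-14742 (MT-TE, for glutamate) and chrM:15956-16023 (MT-TP, for proline). MT-TT, for threonine, at chrM:15888-15953, is the heavy-strand tRNA next to MT-TP and is given for contrast.
MT-TQ: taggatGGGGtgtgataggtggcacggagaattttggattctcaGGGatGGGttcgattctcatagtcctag
MT-TS1: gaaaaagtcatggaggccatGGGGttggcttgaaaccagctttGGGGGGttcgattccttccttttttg
MT-TE: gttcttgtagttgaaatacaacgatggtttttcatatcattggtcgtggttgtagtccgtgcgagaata
MT-TP: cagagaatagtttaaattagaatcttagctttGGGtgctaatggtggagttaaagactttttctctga
MT-TT: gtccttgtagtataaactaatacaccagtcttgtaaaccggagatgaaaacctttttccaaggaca

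The first question was how MT-ND6, the light-strand mRNA, which encodes a membrane subunit of respiratory complex I, compared between knockdown and control cells. It stood at 138 and 87.7 CPM in the control libraries and at 24.5 and 35.0 CPM in the knockdown libraries, from 3851, 1477, 496 and 831 counts. The groups did not overlap, as in 54.9% of all tested genes in either direction, and control replicate 1 lay well above control replicate 2. MT-ND6 fell 3.79-fold in the knockdown, a log2 fold change of -1.92 ± 0.28 (SE; edgeR's quasi-likelihood test with Benjamini-Hochberg adjustment, adjusted p = 0.0483). It was the only one to pass of the 21 mitochondrial genes tested (16 tRNAs had too few counts), where 0.877% of 15170 tested genes passed in either direction, 0.27% as lower and 0.606% as higher. The call was lost without control replicate 1 (log2 fold change -1.57, adjusted p = 0.138), without knockdown replicate 2 (-2.21, adjusted p = 0.0884) and in limma-voom (-1.91, adjusted p = 0.0558). The sources used here do not give the strand setting of the authors' counting, so reads of MT-ND6 or of the light-strand tRNAs and reads of heavy-strand RNA antisense to them may not be told apart.

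Nuclear copies of mitochondrial DNA can attract such reads, but those of MT-ND6 were nearly empty. The table has 27 MT-ND6 pseudogene rows, and they held 2 counts in all, both in 1 library. Among the heavy-strand genes this was different. The 3 pseudogenes with the most counts, MTATP6P1, MTND2P28 and MTCO1P12, held 17361, 4538 and 519 counts in control replicate 1. For each 100 MT-ATP6 counts there were 19.3 and 20.4 of MTATP6P1 in the control libraries and 19.6 and 19.2 in the knockdown. For each 100 MT-ND2 counts there were 5.01 and 4.52 of MTND2P28 against 4.35 and 4.21. MTCO1P12 had 2.02 and 2.02 counts per 1000 of MT-CO1 in the control libraries and 2.10 and 2.01 in the knockdown. The counts of MT-ATP6, MT-ND2 and MT-CO1 are thus uncertain to the extent that reads were divided with these near-identical copies.

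On either side of MT-ND6 the heavy-strand mRNAs differed little between the groups. MT-ND5, another membrane subunit of complex I, had 3129 and 3441 CPM in the control libraries and 3847 and 2618 CPM in the knockdown. MT-CYB, the cytochrome b of complex III, had 1424 and 1446 CPM against 1665 and 1229 CPM. For both genes knockdown replicate 1 was the highest library and knockdown replicate 2 the lowest, so the groups overlapped. The log2 fold changes were -0.02 ± 0.24 for MT-ND5 and 0.01 ± 0.21 for MT-CYB (SE; edgeR quasi-likelihood test, adjusted p = 0.965 and 0.981).

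Within each library, MT-ND6 could be set against its neighbors and against the heavy-strand mRNAs together, which needs no scaling of libraries. For each 1000 MT-ND5 counts there were 44.0 and 25.5 MT-ND6 counts in the control libraries and 6.36 and 13.4 in the knockdown. For each 1000 MT-CYB counts there were 96.7 and 60.7 against 14.7 and 28.5. Against the sum of the 12 heavy-strand mRNAs the ratio was 3.17 and 1.69 per 1000 in the control libraries and 0.539 and 1.03 per 1000 in the knockdown. In all 3 ratios both control libraries lay above both knockdown libraries. The mean log2 ratio to the heavy-strand mRNAs differed by -1.63 (knockdown minus control; SD of log2 values 0.64 and 0.66, n = 2 each), with an exact two-sided permutation p of 0.333, the smallest that 2 against 2 samples can give. A fit of all genes with the heavy-strand mRNA total as the library size put MT-ND6 at -1.63 ± 0.39 (SE, edgeR's quasi-likelihood test with Benjamini-Hochberg adjustment, adjusted p = 0.00176). The p-values of this fit match a normal distribution, which takes the spread between libraries as known. Its SE for MT-ND6 was larger than in the main test (0.28), and its adjusted p is not comparable with that of the main test. In the fit on the heavy-strand total the median of all tested genes was 0.28. There 7.84% of them passed in either direction and 0.725% as lower. The call was lost without control replicate 1 (-1.11, adjusted p = 0.565), without knockdown replicate 1 (-1.23, adjusted p = 0.0617) and with the replicate number as a block (-1.63, adjusted p = 0.135). A ratio of this kind shows unequal change only.

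**Figure D2:**
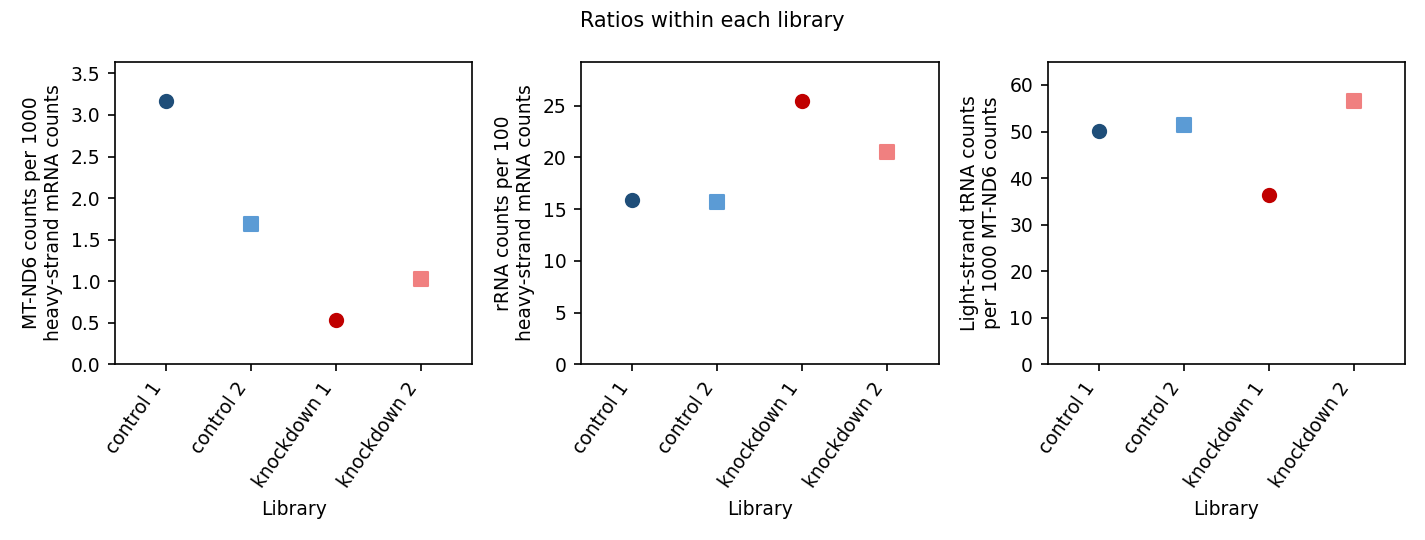
Points are single libraries, controls in blue and knockdown in red. The panels give MT-ND6 counts per 1000 heavy-strand mRNA counts (3.17 and 1.69 against 0.539 and 1.03), rRNA counts per 100 heavy-strand mRNA counts, and light-strand tRNA counts per 1000 MT-ND6 counts, which overlap between the groups.

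The other 8 light-strand genes are tRNAs, of which 4 had enough counts to be tested, 2 had fewer and 2 had none. Mature tRNAs have no poly(A) tail and are shorter than usual library fragments. Only traces of them were counted, 0 to 74 counts per light-strand tRNA and library, and the cause was not tested. MT-TQ had 74 and 27 counts in the control libraries and 7 and 11 in the knockdown. MT-TP had 37 and 19 against 5 and 7, MT-TS1 32 and 12 against 3 and 8, and MT-TE, the tRNA directly upstream of MT-ND6, 37 and 16 against 3 and 13. In CPM the groups did not overlap for these 4, with the knockdown lower, as in 27.8% of all tested genes (54.9% in either direction). MT-TA had 10 and 2 counts against 0 and 5, MT-TY 3 and 0 against 0 and 3, and MT-TN and MT-TC had 0 counts in every library. A count of 0 allows up to 3 counts, 0.107 to 0.178 CPM depending on the library (counting error only).

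None of the light-strand tRNAs passed over all genes in the main test. The log2 fold changes were -2.38 ± 0.53 for MT-TQ, -2.16 ± 0.54 for MT-TP, -1.91 ± 0.64 for MT-TS1 and -1.68 ± 0.66 for MT-TE (SE; edgeR's quasi-likelihood test with Benjamini-Hochberg adjustment, adjusted p = 0.0674, 0.0829, 0.144 and 0.198). Each of the 4 had an unadjusted p below 0.05, as had 22.1% of all tested genes. These 4 passed the filter on low counts mainly through their control libraries, so that they were tested at all is no evidence of a difference. Without the filter MT-TQ and MT-TP were called lower (-2.37 and -2.14, adjusted p = 0.00107 and 0.0221), as were 3.07% of 25916 genes (8.25% in either direction). The p-values without the filter, as those with the heavy-strand total, match a normal distribution that takes the spread between libraries as known. The SE of MT-TQ was 0.57 without the filter and 0.53 in the main test, so these calls are not comparable with the main test. With DESeq2 MT-TQ was called lower (adjusted p = 0.0300). With the heavy-strand mRNA total as library size MT-TQ passed (-2.12 ± 0.65, adjusted p = 0.0219) and MT-TP did not (-1.88 ± 0.72, adjusted p = 0.0904); the MT-TQ call was lost in each of the 4 fits without 1 library.

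Summed over the 8 light-strand tRNAs, the libraries held 193 and 76 counts in the control libraries and 18 and 47 in the knockdown. That is 6.90 CPM (exact Poisson 95% interval 5.96 to 7.95) and 4.52 CPM (3.56 to 5.65) against 0.888 CPM (0.526 to 1.40) and 1.98 CPM (1.45 to 2.63); the intervals cover counting error only. The order of the libraries was that of MT-ND6, with control replicate 1 highest, then control replicate 2, knockdown replicate 2 and knockdown replicate 1. For each 1000 MT-ND6 counts there were 50.1 light-strand tRNA counts (exact binomial 95% interval 43.1 to 57.9) and 51.5 (40.3 to 64.8) in the controls, and 36.3 (21.3 to 58.0) and 56.6 (41.2 to 75.9) in the knockdown. All 4 intervals overlapped, which does not exclude a change of the light-strand tRNAs relative to MT-ND6.

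The 14 heavy-strand tRNAs gave a less even picture. Their sum was 6.76 and 5.94 CPM in the control libraries and 7.25 and 3.87 CPM in the knockdown, so the groups overlapped. MT-TT, next to MT-CYB, made up most of it, with 146 and 73 counts in the control libraries and 129 and 76 in the knockdown libraries (log2 fold change -0.01 ± 0.41, SE; edgeR quasi-likelihood test, adjusted p = 0.996). Leaving out knockdown replicate 2 gave 0.40, and leaving out knockdown replicate 1 gave -0.57. The remaining 13 heavy-strand tRNAs summed to 1.54 and 1.60 CPM against 0.888 and 0.674 CPM. These values did not overlap between the groups. Their exact Poisson 95% intervals were 1.11 to 2.07 and 1.06 to 2.33 CPM in the controls. In the knockdown they were 0.526 to 1.40 and 0.385 to 1.09 CPM. The intervals overlapped between the groups, except those of control replicate 1 and knockdown replicate 2. Among them MT-TW, for tryptophan, had 14 and 12 counts against 8 and 5 (-0.98 ± 0.63, adjusted p = 0.401). The other 12 had at most 8 counts in a library, and 6 of them had 0 counts in all 4. In CPM the groups did not overlap for 3 of the 8 heavy-strand tRNAs with a count, and 5 overlapped. The 3 were MT-TW, MT-TI (8 and 3 counts against 0 and 2) and MT-TD (8 and 6 against 2 and 4). Each was lower in the knockdown, as were 27.8% of all tested genes without overlap. Overlap of such intervals does not exclude a difference in the 13 heavy-strand tRNAs other than MT-TT, and their sum was not tested. The heavy-strand sum rests mainly on 1 gene, MT-TT.

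**Figure D3:**
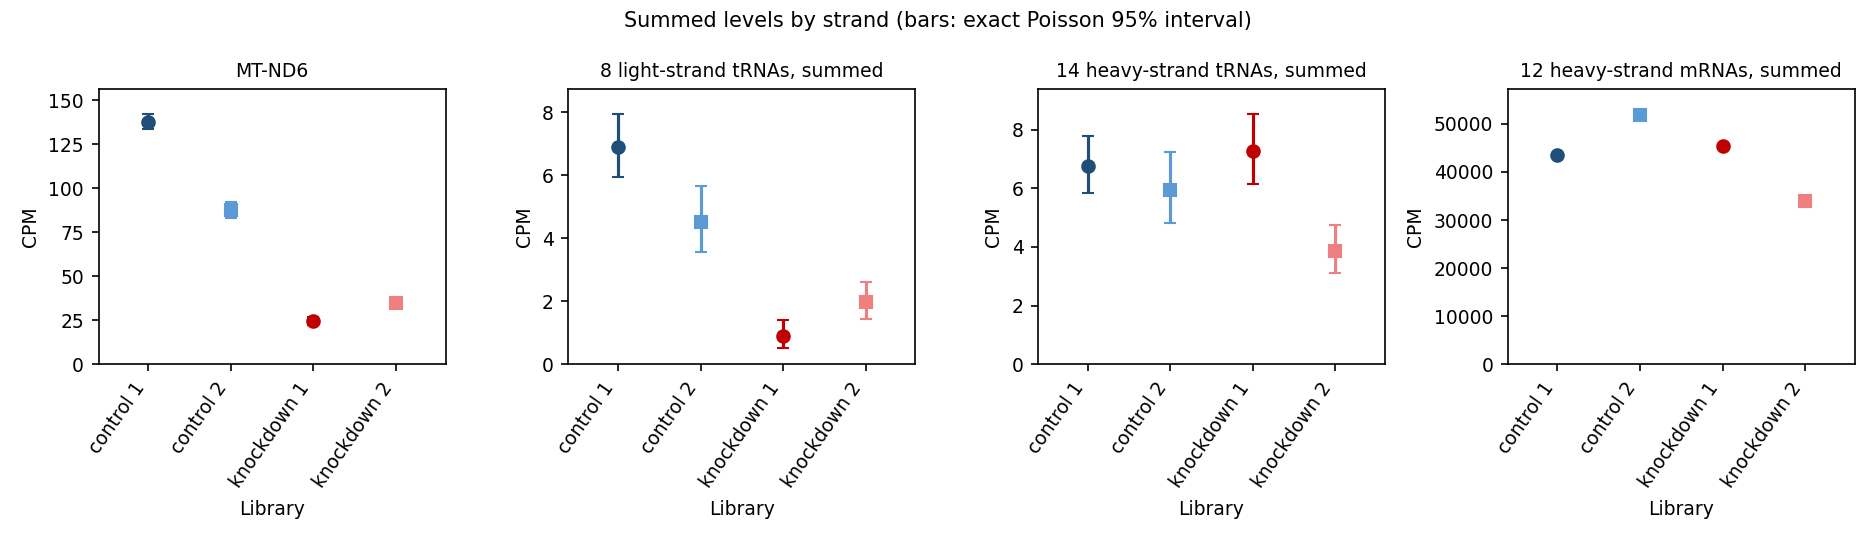
Points are the summed CPM of each library, with exact Poisson 95% intervals that cover counting error only. MT-ND6 and the 8 light-strand tRNAs show both controls above both knockdown libraries (6.90 and 4.52 against 0.888 and 1.98 CPM for the tRNAs). The heavy-strand sums overlap between groups, and that of the tRNAs rests mainly on MT-TT. Without MT-TT the heavy-strand tRNAs, not shown, summed to 1.54 and 1.60 against 0.888 and 0.674 CPM, without overlap.

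The heavy-strand mRNAs make up most of the mitochondrial counts, 3.47% to 4.95% of all counts in a library. None of the 12 passed (edgeR quasi-likelihood test, smallest adjusted p 0.0758), and 1 had an unadjusted p below 0.05, where 22.1% of all tested genes had. DESeq2 called 1 of the 12 lower, the same gene, MT-ATP8, where it called 8.59% of all its genes in either direction. Their log2 fold changes ran from -0.76 to 0.21 with a median of -0.28, against -0.0036 over all tested genes. The groups did not overlap in 6 of the 12, each time with the knockdown lower, where 27.8% of all tested genes did so. The median of the 13 mRNAs, -0.28, was -0.14 without knockdown replicate 2, -0.16 without control replicate 2 and -0.54 when knockdown replicate 1 was left out.

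The subunits of the ATP synthase had the lowest values among the heavy-strand mRNAs. MT-ATP8 and MT-ATP6 share one transcript and 46 bases of sequence, so reads in that stretch are uncertain. MT-ATP8 had 149 and 167 CPM in the control libraries and 104 and 83.6 CPM in the knockdown, a log2 fold change of -0.76 ± 0.18 (SE; edgeR quasi-likelihood test, adjusted p = 0.0758). MT-ATP6 had 3210 and 3940 CPM against 2861 and 2293 CPM (-0.47 ± 0.22, adjusted p = 0.261). In both genes each knockdown library lay below each control library. For each 100 MT-ATP6 counts there were 4.64 and 4.24 MT-ATP8 counts in the control libraries and 3.63 and 3.64 in the knockdown.

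The mRNAs of cytochrome c oxidase, the terminal enzyme of the chain, were the most abundant per length. MT-CO2 reached a mean of 11103 CPM per kb of gene in the control libraries and 9659 in the knockdown, the highest level of all 37 genes. MT-CO1 had 9189 and 10660 CPM in the control libraries and 9903 and 6420 CPM in the knockdown, with a log2 fold change of -0.28 ± 0.27 (SE). MT-CO2 had 6623 and 8565 CPM against 7186 and 6028 CPM (-0.20 ± 0.23). In these genes the low library was knockdown replicate 2, and the groups overlapped. MT-CO3 had 5415 and 5935 CPM against 5168 and 3452 CPM (-0.40 ± 0.25), without overlap.

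Complex I draws 6 of its subunits from heavy-strand mRNAs, and of the 5 described here MT-ND3 alone had a value above 0, which was -0.076 without knockdown replicate 1. It had 416 and 476 CPM in the control libraries and 610 and 421 CPM in the knockdown libraries (log2 fold change 0.21 ± 0.22, SE), and the groups overlapped. MT-ND1 had 2662 and 3085 CPM against 2432 and 1962 CPM (-0.39 ± 0.21). MT-ND2 had 3238 and 3898 CPM against 3202 and 2871 CPM (-0.23 ± 0.21). Both were lower in each knockdown library than in each control. MT-ND4L and MT-ND4, which share one transcript and 7 bases, had -0.45 ± 0.22 and -0.28 ± 0.24; MT-ND4L went from 645 and 827 CPM to 626 and 456 CPM, and MT-ND4 from 7374 and 9489 CPM to 7843 and 6059 CPM. None of these passed (edgeR quasi-likelihood test, adjusted p = 0.292 to 0.620).

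Per length, MT-ND6 was the least abundant of the 13 mRNAs in every library. Its level was 262 and 167 CPM per kb in the control libraries and 46.6 and 66.7 CPM per kb in the knockdown. The next lowest, MT-ATP8, had a mean of 764 CPM per kb in the control libraries and 453 in the knockdown, and MT-ND5 and MT-CYB had 1813 and 1258 CPM per kb in the controls. MT-ND6 levels in a polyA library need not reflect its cellular level, as its mRNA is known to lack a stable tail.

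**Figure D4:**
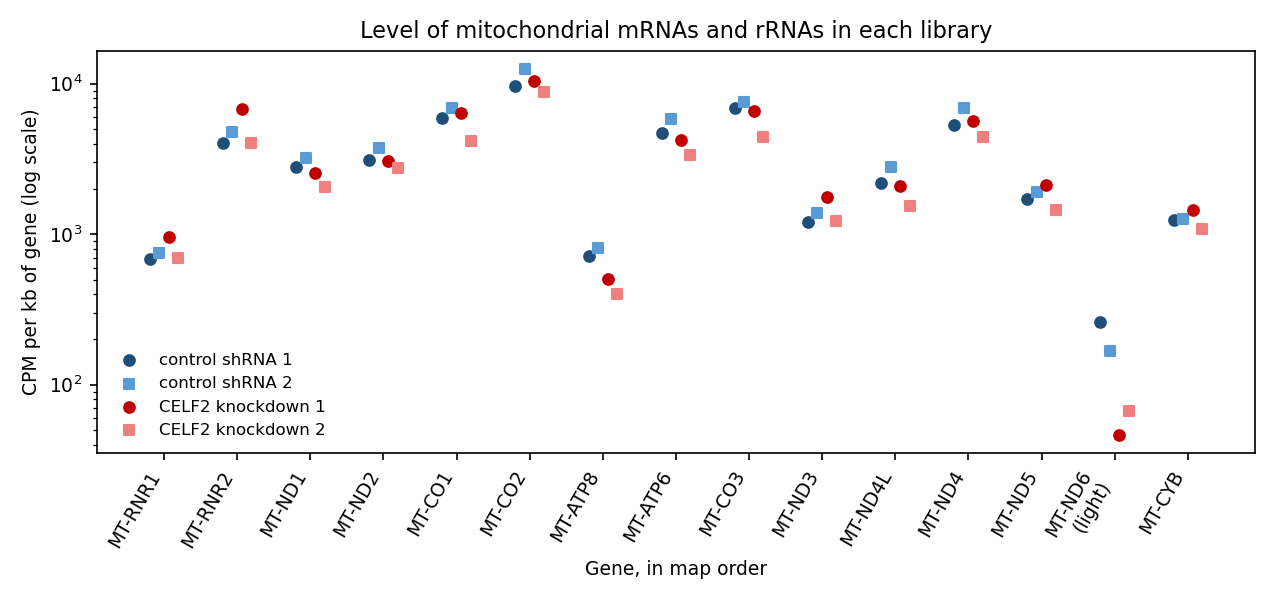
Each point is 1 library, in CPM per kb of gene on a log axis, with the mRNAs and rRNAs in map order. MT-ND6 is the lowest mRNA in each library, with the controls at 262 and 167 and the knockdown at 46.6 and 66.7 CPM per kb.

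The 2 rRNAs of the mitochondrial ribosome, MT-RNR1 (12S) and MT-RNR2 (16S), lie at the start of the heavy-strand precursor and had more counts per heavy-strand mRNA count in both knockdown libraries than in both controls. MT-RNR2 had 6262 and 7421 CPM in the control libraries and 10646 and 6280 CPM in the knockdown. MT-RNR1 had 652 and 717 CPM against 913 and 662 CPM. For both genes knockdown replicate 1 stood above the other 3 libraries, which lay close together. The log2 fold changes were 0.31 ± 0.29 and 0.20 ± 0.21 (SE; edgeR quasi-likelihood test, adjusted p = 0.579 and 0.618), and without knockdown replicate 1 they were -0.12 and -0.041. Neither rRNA passed in the alternatives run. For each 100 heavy-strand mRNA counts there were 15.9 and 15.7 rRNA counts in the controls, nearly equal, and 25.4 and 20.5 in the knockdown. The log2 ratio differed by 0.53, and by 0.38 without knockdown replicate 1. With the heavy-strand mRNA total as library size, MT-RNR2 had 0.55 ± 0.26 (adjusted p = 0.226) and MT-RNR1 0.46 ± 0.34 (adjusted p = 0.541), so the difference did not pass.

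**Figure D5:**
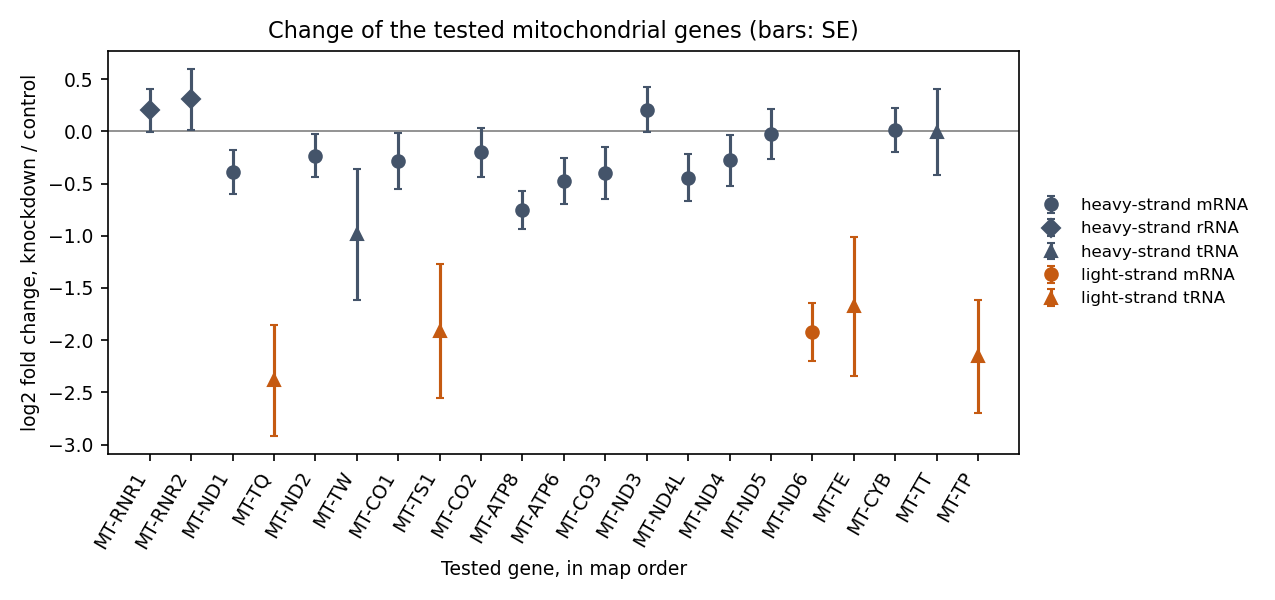
Points are log2 fold changes (knockdown over control) of the 21 tested mitochondrial genes in map order, with bars of 1 SE and colors by strand. The tested light-strand genes lie between -2.38 and -1.68, and the heavy-strand mRNAs and rRNAs between -0.76 and 0.31. The tested heavy-strand tRNAs MT-TW and MT-TT lie at -0.98 and -0.01.

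The whole set took 5.07% and 5.74% of the counts in the control libraries and 5.80% and 4.19% in the knockdown. Knockdown replicate 1 held the highest share and knockdown replicate 2 the lowest, so the groups overlapped. The difference in means was -0.41 percentage points, and it was 0.40 without knockdown replicate 2. In bulk RNA, fewer mitochondrial genomes, fewer transcripts per genome and a change in the rest of the RNA cannot be told apart.

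Nuclear genes that make, process and degrade mitochondrial RNA were examined as 4 lists, with 52 of 53 members tested. None of the 52 passed (edgeR quasi-likelihood test); 9 were lower and 2 higher at an unadjusted p below 0.05, as were 22.1% of all tested genes in either direction. DESeq2 called 1 lower and 2 higher, where it called 8.59% of all its genes. Neither count is above its share over all genes. Of the 52, 45 had a log2 fold change below 0, as had 50.3% of all tested genes, and the median was -0.29 against -0.0036. The groups did not overlap, with the knockdown lower, in 34 of the 52, against 27.8% of all tested genes.

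Among transcription and replication factors (19 tested, median -0.38), 17 lay below 0. POLG, the mitochondrial DNA polymerase, had 114 and 133 CPM in the control libraries and 186 and 221 CPM in the knockdown libraries (log2 fold change 0.72 ± 0.18, SE; edgeR quasi-likelihood test, adjusted p = 0.0796), and its exons overlap those of FANCI. SSBP1, which binds single-stranded mitochondrial DNA, had 184 and 177 CPM against 116 and 126 CPM (-0.57 ± 0.16, adjusted p = 0.0978). PPRC1, a coactivator of nuclear genes for mitochondria, had -0.62 ± 0.21. Of the factors that start transcription at the mitochondrial promoters, the RNA polymerase POLRMT had -0.05 ± 0.16, the promoter-bending factor TFAM -0.42 ± 0.20 and TFB2M -0.29 ± 0.22, and none passed. The exons of SSBP1 overlap those of another gene.

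Among the factors that cleave the precursor and modify its tRNAs (16 tested, median -0.21), 14 lay below 0. HSD17B10, a subunit of mitochondrial RNase P, was an exception with 64.7 and 67.7 CPM in the control libraries and 114 and 104 CPM in the knockdown (0.72 ± 0.16, SE; edgeR quasi-likelihood test, adjusted p = 0.0678). Its partner TRMT10C had 57.0 and 44.4 CPM against 34.0 and 37.8 CPM (-0.50 ± 0.20). TRMU, which thiolates tRNAs, had -0.59 ± 0.19, and ELAC2, which cuts at the 3′ end of tRNAs, -0.33 ± 0.16. The nuclease subunit PRORP had 7.01 and 6.06 CPM against 7.55 and 6.53 CPM (0.10 ± 0.29), and overlapped. None of these RNase P subunits passed, and the signs of their log2 fold changes differed.

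Among the factors of polyadenylation and stability (13 tested, median -0.29), 11 lay below 0. FASTKD2 had -0.62 ± 0.17 and the poly(A) polymerase MTPAP -0.58 ± 0.19 (SE; edgeR quasi-likelihood test, adjusted p = 0.101 and 0.132); exons of both overlap those of other genes. LRPPRC, which stabilizes the heavy-strand mRNAs, had 380 and 318 CPM in the control libraries and 256 and 295 CPM in the knockdown (-0.34 ± 0.18, adjusted p = 0.308). GRSF1, which binds G-rich mitochondrial RNAs of the light strand, had 189 and 181 CPM against 149 and 170 CPM (-0.22 ± 0.16, adjusted p = 0.475), a gene named here for that role.

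The decay list was short, with 4 genes and a median of -0.25. PNPT1, the exonuclease that degrades light-strand RNA, had 78.7 and 69.6 CPM in the control libraries and 41.3 and 49.3 CPM in the knockdown libraries (log2 fold change -0.71 ± 0.18, SE; edgeR quasi-likelihood test, adjusted p = 0.0848). Its helicase partner SUPV3L1 had 41.0 and 42.7 CPM against 38.7 and 48.3 CPM (0.06 ± 0.19). PDE12, which shortens poly(A) tails, had -0.38 ± 0.17 and the oligoribonuclease REXO2, whose exons overlap those of another gene, -0.11 ± 0.17. The genes that DESeq2 called were PNPT1, as lower, and HSD17B10 and POLG, as higher.

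Since MT-ND6 and tRNAs lack stable poly(A) tails, other RNAs without tails were read in the same libraries. Of 15 such nuclear and cytosolic RNAs, 11 had 0 counts in every library, RN7SK and TERC among them, and 2 were tested. RN7SL1, the RNA of the signal recognition particle, had 13.7 and 16.5 CPM in the control libraries and 9.57 and 4.25 CPM in the knockdown (-1.13 ± 0.39, SE; edgeR quasi-likelihood test, adjusted p = 0.157). SNORD3A, the U3 RNA of rRNA processing, had 3.75 and 4.57 CPM against 3.55 and 2.23 CPM (-0.52 ± 0.39, adjusted p = 0.473). For both, each knockdown library lay below each control, as in 27.8% of all tested genes (54.9% without overlap in either direction). Control replicate 2 was the highest library and knockdown replicate 2 the lowest for both, and neither passed. RN7SL1 has near-identical copies and shares exon positions with another gene. The part of tail-less RNA capture in the MT-ND6 result was not tested.

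Long RNAs that stay in the nucleus were also listed, as a sign of the kind of RNA captured. Of 6 such genes 5 were tested and 0 passed (edgeR quasi-likelihood test; 0 at an unadjusted p below 0.05), with a median of -0.35 and all 5 below 0. KCNQ1OT1 had -0.70 ± 0.35, SNHG14 -0.33 ± 0.17 and NEAT1 -0.55 ± 0.35 (SE), and their exons overlap those of other genes. NEAT1 had 686 and 493 CPM in the control libraries and 548 and 258 CPM in the knockdown, and so overlapped between groups. The part of these levels in the MT-ND6 result was not tested.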

How the data were processed

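The values are raw counts per Ensembl gene as deposited by the authors (60617 rows, 1 column per library). The submitters' processing notes name HISAT2, edgeR and GRCh38 without versions. For the counting program, annotation release, strand setting and handling of shared reads, nothing is stated in the sources used here. Libraries were prepared with an Illumina TruSeq kit, per the labels' protocols. All genes were fitted together with edgeR 4.0.16 (R 4.3.3): TMM scaling, filterByExpr at a minimum count of 10, quasi-likelihood test, Benjamini-Hochberg adjustment at 0.05. The test was checked on simulated data with less spread between replicates than these libraries, so the check does not cover their spread. A second fit used the summed counts of the 12 heavy-strand mRNAs as library size. Alternatives were DESeq2 1.42.0, limma-voom (limma 3.58.1), DESeq2 size factors, TMM without mitochondrial rows, other filters, a replicate block and leaving out each library. CPM per kb uses gene lengths of GENCODE v29, the source of coordinates and sequences; all 37 gene IDs matched. The gene PRORP was matched by ID.

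Members and lists were chosen with earlier results of these data known. All mRNAs, rRNAs, tested tRNAs and neighbors of MT-ND6 were named, and in other lists the members past the threshold and up to 3 others with the smallest p; GRSF1, POLRMT, TFAM, TFB2M, PRORP, ELAC2 and SUPV3L1 were added for their roles. The replicates of a group differed by far more than sampling noise (chi-square per degree of freedom 54.3 and 48.1).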

Additional observations from a re-analysis of the deposited data

How the results depend on the processing

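MT-ND6 was lower in the knockdown in each fit run, with log2 fold changes of -2.21 to -1.57 over the fits without 1 library. Its call was lost in limma-voom (-1.91, adjusted p = 0.0558). The p-values of the fit without a filter take the spread between libraries as known, so its calls are not comparable with those of the main test. The members called lower numbered 1 in the main test, 4 without a filter on low counts (MT-ATP8, MT-ND6, MT-TP and MT-TQ), 3 with DESeq2, 0 with limma-voom (7 at an unadjusted p below 0.05) and 0 to 1 without 1 library; 0 were called higher in each fit. Of the nuclear lists 2 were called lower and 2 higher without a filter, 1 and 2 with DESeq2, and 0 without any 1 library. Calls over all genes numbered 133 in the main test, 207 with DESeq2 size factors, 2139 without a filter, 1303 with DESeq2, 0 with limma-voom (3402 at an unadjusted p below 0.05) and 0 (1724 unadjusted, without control replicate 1) to 616 without 1 library. The median of the 13 mRNAs ranged from -0.54 to -0.14 without 1 library, and the share of counts from -1.21 to 0.40 percentage points.

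With the heavy-strand mRNA total as library size, MT-ND6 ranged from -2.17 to -1.11 without 1 library. The log2 ratio of MT-ND6 to the heavy-strand mRNAs was -1.87 against MT-ND5 and MT-CYB, -2.17 against the rRNAs and -2.10 to -1.16 without 1 library. The ratio of light-strand tRNAs to those mRNAs, -1.80, an alternative chosen after seeing the data, was -2.59 to -1.01 without 1 library, and that of the rRNAs 0.38 to 0.69.

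The replicate numbers are shared between groups, but the labels do not say that they pair samples; the deviations of same-numbered samples correlated at 0.20 across genes. With the replicate block 4 members were called lower, 1 member of the nuclear lists lower and 2 higher, among 1579 genes; with the heavy-strand total MT-ND6 then missed the threshold (-1.63, adjusted p = 0.135).

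Small values that changed sign were those of MT-TT (0.0095 without a filter, 0.029 at a minimum count of 50), MT-ND5 (0.011 at a minimum count of 50) and MT-CYB (-0.0032 with limma-voom, -0.0045 with the replicate block). Over the fits without 1 library, values ran across 0 for MT-CYB (-0.21 to 0.21), MT-TT (-0.57 to 0.40), MT-ND5 (-0.32 to 0.22), MT-CO2 (-0.38 to 0.011), MT-ND3 (-0.076 to 0.45), MT-RNR1 (-0.041 to 0.41) and MT-RNR2 (-0.12 to 0.63). The cause was not tested. In fits without 1 library the lone sample of its group is assumed to vary like the other group. The tRNA counts limit what can be seen of single tRNAs.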
